A study of Mus musculus with 6 samples.

Results

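The imprinted genes are a set of 32 mouse genes that are known to be transcribed from 1 parental allele, chosen by name from imprinted domains on several chromosomes. Each gene was represented by the brightest array feature, called a transcript cluster, among those annotated with its symbol and no other. Of the 32 genes, 26 had such a cluster among 19919 genes named on the array, and 24 of these were bright enough to be tested, out of 15451 genes tested in all. The list holds 19 paternally expressed genes, 12 maternally expressed genes and Gnas, whose expressed allele depends on the transcript.

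Mouse embryonic fibroblasts, primary cells grown out from whole embryos, were cultured from E13.5 embryos to passage 4 and harvested while proliferating. There were 3 cultures with 2 wild-type copies of Rb1 (Rb1+/+) and 3 homozygous for the L allele (Rb1L/L), and no culture received a treatment that the labels name. The L allele is known as a knock-in that alters the cleft by which the retinoblastoma protein pRb, a repressor of cell cycle genes, binds proteins with an LXCXE motif, and the series concerns the recruitment of condensin II by pRb and genes arranged as divergent pairs. Total RNA was hybridised to Affymetrix whole-transcript arrays, 1 array per culture, and values are log2 expression. The labels do not say whether the cultures of 1 genotype came from separate embryos, so the p-values measure the spread between these cultures.

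Genomic imprinting marks the maternal and paternal copy of a gene differently in the germ line, mostly by DNA methylation of a control region, and the marks persist in somatic cells. Imprinted genes lie in clusters in which a noncoding RNA is often made from one parental chromosome and protein-coding genes from the other. Many paternally expressed genes promote fetal growth, and several maternally expressed genes restrain it. An array reads the RNA of both alleles together, so the values here are total levels and say nothing of which allele was active. In cultures of mixed cells, a lower value from fewer cells of a type and from less RNA per cell cannot be told apart.

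The arrays were alike in level, with medians between 6.393 and 6.449. Correlations over the 15451 genes tested ran from 0.9948 to 0.996 within a genotype and from 0.9873 to 0.9927 between genotypes. Replicate 1 of each genotype had the male pattern (Xist at 5.13 and 4.79, the Y-linked Eif2s3y at 8.36 and 8.47), and the other 4 arrays had the female pattern, so sex type was balanced between the genotypes. Rb1 itself averaged 8.83 ± 0.19 (SD, n = 3) in Rb1+/+ and 8.93 ± 0.07 in Rb1L/L, which checks nothing, since the altered allele is still transcribed. Over all genes tested, the median log2 difference (Rb1L/L minus Rb1+/+) was -0.021.

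Nnat was higher and Peg10 was lower in Rb1L/L cultures, and these 2 of the 24 tested imprinted genes passed an adjusted p of 0.05. Among all genes tested, 12.2% passed (7.11% higher and 5.07% lower), so the members' count was near the background and is no result about imprinted genes as a set. The labels do not say what same-numbered cultures share, so pairing them is an assumption. With the replicate number as a block on that assumption, 7 members passed against a background of 14.4%. These were Nnat, Mest and Ndn, which were higher (background 7.99%), and Peg10, Plagl1, Igf2r and Rian, which were lower (background 6.45%). The values of the 3 Rb1L/L cultures did not overlap those of the 3 Rb1+/+ cultures for 8 of the 24 genes, 2 higher and 6 lower, beside 34.5% of all genes tested (16.2% higher and 18.3% lower). An unadjusted p under 0.05 was reached by 10 members, beside 28.7% of all genes. The 3 same-numbered pairs differed in the same direction upward for 5 members and downward for 9, beside 52.3% of all genes. The median difference over the tested members was -0.10, beside -0.02 over all genes, and the median absolute difference was 0.16, beside 0.10.

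**Figure D1:**
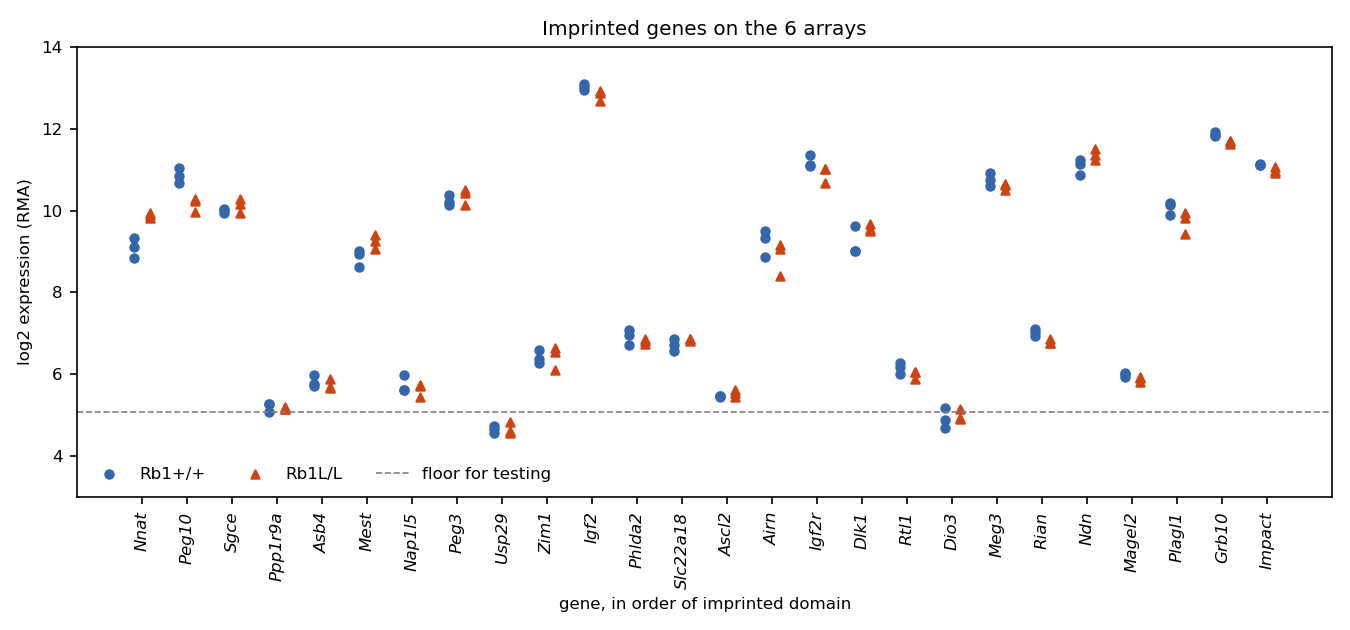
Each point is the log2 expression of 1 imprinted gene on 1 of the 6 arrays, with Rb1+/+ cultures as circles, Rb1L/L cultures as triangles and genes in order of domain, and the dashed line marks the level of 5.081 that a mean had to exceed for a test. Nnat stands apart upward and Peg10 downward in Rb1L/L cultures, while Usp29 and Dio3 lie below the line on average.

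Of the 14 paternally expressed genes tested, 1 passed upward and 1 downward without the block (7.11% and 5.07% of all genes), and 3 and 2 with it (7.99% and 6.45% of all genes). Of the 10 maternally expressed genes tested, none passed without the block (12.2% of all genes) and 2 passed downward with it (6.45% of all genes). In limma, an unadjusted p under 0.05 was reached by 7 of the 14 paternally and 3 of the 10 maternally expressed genes. Of all genes, 28.7% did. The median absolute difference was 0.24 for the paternally expressed and 0.12 for the maternally expressed genes. The paternally expressed genes were also brighter, with a mean of 9.32 to 9.35 in Rb1+/+ cultures against 7.70 to 7.79 for the maternally expressed. Whether the 2 classes differ, and the part of level in this, was not tested. Both genes that passed without the block and all 3 that were higher with it are paternally expressed.

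**Figure D2:**
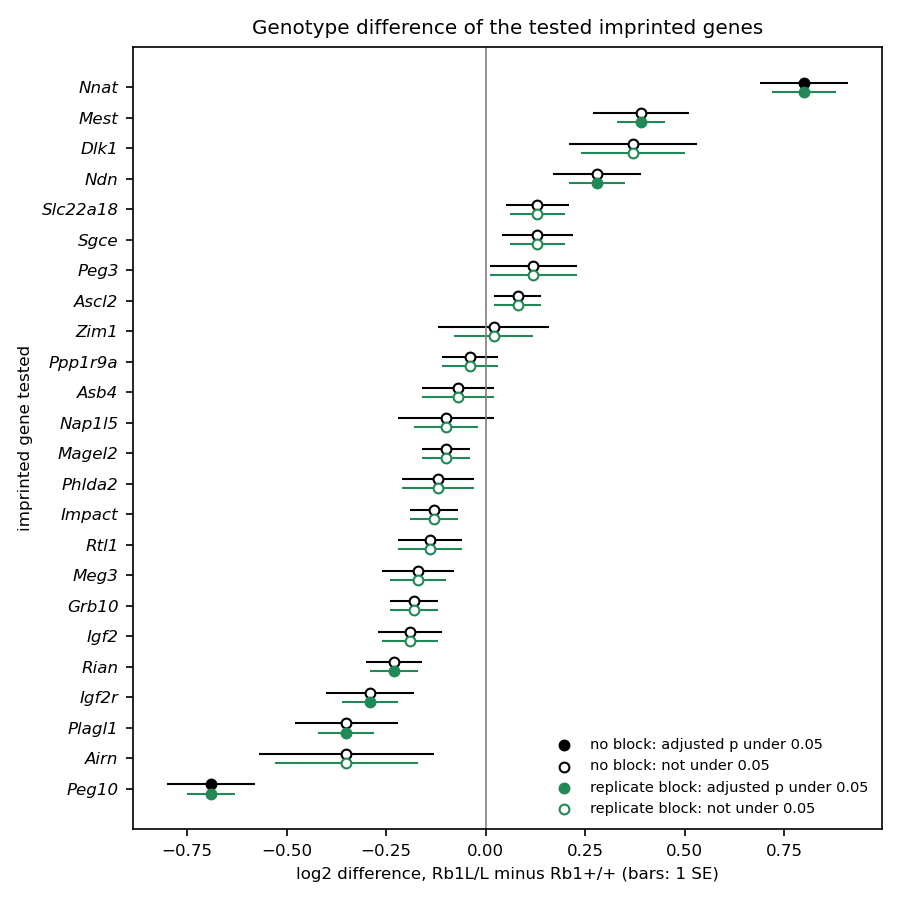
Points show the log2 difference (Rb1L/L minus Rb1+/+) of the 24 tested imprinted genes with bars of 1 standard error, without (black) and with (green) the replicate block, and filled points have an adjusted p under 0.05. Values run from -0.69 for Peg10 to 0.80 for Nnat, and the block narrows the bars of Mest, Ndn, Igf2r, Rian and Plagl1, whose points are filled only in green.

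Nnat encodes neuronatin, a small membrane protein of the endoplasmic reticulum, and is a paternally expressed gene within an intron of Blcap. Its log2 expression was 9.33, 8.85 and 9.10 in Rb1+/+ cultures 1 to 3 and 9.95, 9.83 and 9.89 in the Rb1L/L cultures. Every Rb1L/L culture lay above every Rb1+/+ culture, and the Rb1L/L values were the more tightly grouped, with an SD of 0.06 against 0.24. The difference was 0.80 ± 0.11 (SE), or 1.74-fold (adjusted p = 0.00592, and 0.00305 with the block). Nnat rose within each of the 3 same-numbered pairs, by 0.62, 0.99 and 0.78. The host gene Blcap, for which imprinting is known in brain, averaged 8.74 in Rb1+/+ and differed by -0.01 (adjusted p = 0.953).

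The Nnat promoter window in RefSeq (GRCm38.p6, 250 bases before to 50 after the start, chr2:157559828-157560127, plus strand) is shown because this gene had the largest positive difference among the tested members. Capitals mark the hexamer TGCCGC, the core recognised by the imprint-protecting zinc finger protein ZFP57 when methylated, here on the opposite strand.
Nnat: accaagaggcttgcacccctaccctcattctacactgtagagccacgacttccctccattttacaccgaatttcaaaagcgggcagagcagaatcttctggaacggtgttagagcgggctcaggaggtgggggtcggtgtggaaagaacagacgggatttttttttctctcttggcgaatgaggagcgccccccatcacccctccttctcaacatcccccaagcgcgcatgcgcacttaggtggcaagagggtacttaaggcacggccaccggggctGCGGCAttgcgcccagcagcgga

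Peg10, a paternally expressed gene derived from a retrotransposon and required in the placenta, fell in Rb1L/L cultures. Its log2 expression was 11.03, 10.68 and 10.84 in Rb1+/+ and 10.28, 9.97 and 10.24 in Rb1L/L cultures, so the groups did not overlap. The difference was -0.69 ± 0.11 (SE), 1.61-fold lower (adjusted p = 0.00944, and 0.00231 with the block). The change was of like size within the pairs, at -0.75, -0.72 and -0.60.

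Sgce, which encodes epsilon-sarcoglycan, starts next to Peg10 in the opposite direction and is also paternally expressed, so the 2 genes form a divergent pair under one germ-line imprint. Sgce read 10.04, 10.02 and 9.94 in Rb1+/+ and 10.29, 10.15 and 9.95 in Rb1L/L cultures. These values overlapped, and the difference of 0.13 ± 0.09 did not pass (adjusted p = 0.365, and 0.238 with the block). Their differences lay on opposite sides of 0, an unequal change of -0.82 in Peg10 relative to Sgce on the same array. This contrast was chosen after the values of Peg10 were seen and is given with no test. The maternally expressed neighbours of this domain, Ppp1r9a (neurabin, an actin-binding protein) and Asb4 (a ubiquitin ligase adaptor), differed by -0.04 (adjusted p = 0.767) and -0.07 (adjusted p = 0.634).

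Mest, a paternally expressed gene for a protein of the hydrolase fold that is known to scale with fetal and adipose growth, was higher in all 3 pairs. It read 8.61, 9.01 and 8.93 in Rb1+/+ and 9.05, 9.41 and 9.26 in Rb1L/L cultures. The groups did not overlap, and cultures with the same number kept the same order in both genotypes. The difference was 0.39 ± 0.12 (SE, adjusted p = 0.0767) and passed only with the block, where its SE was 0.06 (adjusted p = 0.0102). Copg2, a coat protein gene whose 3′ end overlaps that of Mest on the opposite strand, fell by 0.39 on the log2 scale (adjusted p = 0.012). Copg2 read 9.61, 9.55 and 9.76 in Rb1+/+ and 9.28, 9.25 and 9.21 in Rb1L/L cultures.

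**Figure D3:**
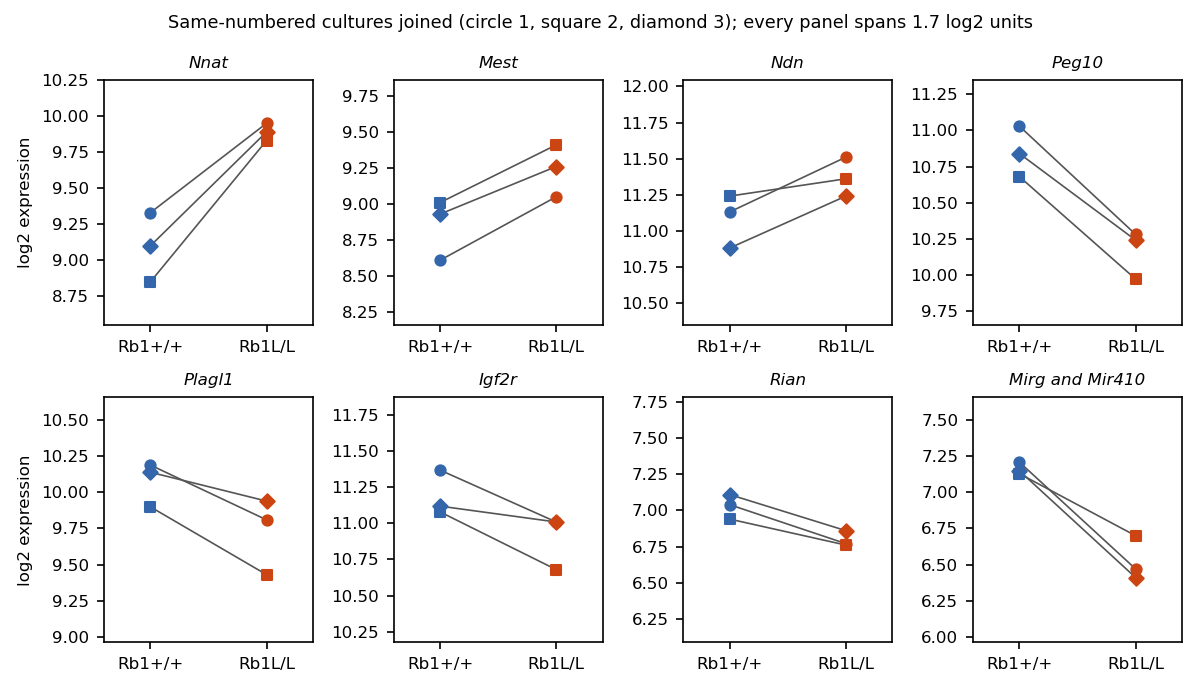
Log2 expression is shown for the 7 imprinted genes that passed with the replicate block and for the cluster shared by Mirg and Mir410, with same-numbered cultures joined by a line and an equal span on every vertical axis. All lines for Nnat, Mest and Ndn run upward and all lines for Peg10, Plagl1, Igf2r, Rian and the shared cluster run downward, while the starting levels of the pairs differ.

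Ndn encodes necdin, a growth-restraining protein of the MAGE family, and belongs to the paternally expressed genes of the Prader-Willi region. Its values were 11.13, 11.24 and 10.88 in Rb1+/+ and 11.51, 11.36 and 11.24 in Rb1L/L cultures, and the groups touched at 11.24. The difference was 0.28 ± 0.11 (adjusted p = 0.12) and passed only with the block (adjusted p = 0.0445). Without the third Rb1+/+ culture, the lowest of the 6, it was 0.18 (adjusted p = 0.264, without the block). Magel2, another MAGE family gene of the region, read 5.98 on average in Rb1+/+ and 5.88 in Rb1L/L cultures (adjusted p = 0.346). Snrpn, for a splicing protein, had only a cluster that is also annotated with Snurf, its upstream reading frame, and this differed by 0.08 (adjusted p = 0.551).

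Plagl1, also known as Zac1, is a paternally expressed zinc finger factor that is known to regulate a network of other imprinted genes. It read 10.19, 9.90 and 10.14 in Rb1+/+ and 9.81, 9.43 and 9.94 in Rb1L/L cultures. The groups overlapped, but each Rb1L/L culture was below its same-numbered partner, by -0.38, -0.47 and -0.19. The difference was -0.35 ± 0.13 (adjusted p = 0.128) and passed only with the block (adjusted p = 0.0236). Without the second Rb1L/L culture, the lowest of the 6, it was -0.20 (adjusted p = 0.291, without the block).

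The Plagl1 window (RefSeq, GRCm38.p6, chr10:13090582-13090881, plus strand) is printed because it holds, on the opposite strand, one of the E2F octamers searched. Capitals mark that octamer, TTTGCCGC read on the other strand, which contains the hexamer TGCCGC.
Plagl1: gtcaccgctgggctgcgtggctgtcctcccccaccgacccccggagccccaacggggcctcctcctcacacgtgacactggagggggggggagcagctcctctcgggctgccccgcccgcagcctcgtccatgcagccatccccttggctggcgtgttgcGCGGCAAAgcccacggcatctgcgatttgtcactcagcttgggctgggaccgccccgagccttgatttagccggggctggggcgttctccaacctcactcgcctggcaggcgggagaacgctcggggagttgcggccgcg

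The growth axis of insulin-like growth factor 2 joins 3 imprinted genes: the paternally expressed ligand Igf2, the maternally expressed receptor Igf2r, which takes up and degrades the ligand, and Grb10, an adaptor that inhibits insulin and IGF receptor signalling. All 3 read lower in Rb1L/L cultures with no overlap between groups, as did 18.3% of all genes, and had an unadjusted p under 0.05 in limma, as did 28.7% of all genes. None passed without the block, and Igf2r alone passed with it. The 3 genes were grouped with their values known, so their shared direction is a description. Igf2r read 11.37, 11.08 and 11.12 in Rb1+/+ and 11.01, 10.68 and 11.01 in Rb1L/L cultures, a difference of -0.29 ± 0.11 (adjusted p = 0.122, and 0.043 with the block). Igf2 read 13.09, 13.01 and 12.96 in Rb1+/+ and 12.87, 12.68 and 12.93 in Rb1L/L cultures, a difference of -0.19 ± 0.08 (adjusted p = 0.142, and 0.127 with the block). The second Rb1L/L culture was the lowest for both, and without it the difference was -0.18 for Igf2r (adjusted p = 0.305) and -0.12 for Igf2 (adjusted p = 0.365).

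Grb10 read 11.85, 11.91 and 11.83 in Rb1+/+ and 11.69, 11.64 and 11.71 in Rb1L/L cultures. Its difference of -0.18 ± 0.06 was small against those of Nnat and Peg10 and had an adjusted p of 0.0716 (0.0977 with the block). Airn, the paternally expressed noncoding RNA that overlaps Igf2r in antisense and silences it in cis, varied widely between cultures. It read 8.86, 9.33 and 9.51 in Rb1+/+ and 9.07, 8.41 and 9.16 in Rb1L/L cultures, and its pairs went in different directions, by 0.21, -0.91 and -0.35. The difference of -0.35 ± 0.22 did not pass (adjusted p = 0.33), and it ranged from -0.54 without Rb1+/+ replicate 1 to -0.12 without Rb1L/L replicate 2, with -0.21 without Rb1+/+ replicate 3. H19, the maternally expressed RNA next to Igf2, had no cluster with its symbol alone and is not analysed here.

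The domain from Dlk1 to Dio3 on chromosome 12 carries paternally expressed protein-coding genes and a long maternally expressed tract of noncoding RNAs, which hosts small nucleolar RNAs and one of the largest microRNA groups in the mouse genome. Dlk1, a membrane protein that restrains adipocyte differentiation, read 9.01, 9.63 and 9.0 in Rb1+/+ and 9.49, 9.56 and 9.68 in Rb1L/L cultures. Its difference was 0.37 ± 0.16 (adjusted p = 0.173, and 0.112 with the block). The second Rb1+/+ culture stood within the Rb1L/L range, and without it the difference was 0.58 (adjusted p = 0.00916). Rtl1, a retrotransposon-derived gene needed in the placenta, differed by -0.14 (adjusted p = 0.31). Dio3, the deiodinase that inactivates thyroid hormone, averaged 4.92 and 4.99, below the level for a test.

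Of the maternally expressed noncoding RNAs, Meg3 differed by -0.17 ± 0.09 (adjusted p = 0.251). Rian read 7.04, 6.94 and 7.11 in Rb1+/+ and 6.77, 6.76 and 6.86 in Rb1L/L cultures, with no overlap. The difference of -0.23 ± 0.07 had an adjusted p of 0.0585 and passed with the block (adjusted p = 0.0453). A second Rian cluster, also annotated with the small nucleolar RNA AF357355, differed by 0.09 ± 0.10 (adjusted p = 0.612), so the clusters of this RNA disagreed in direction.

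Mirg, at the far end of the tract, was measured only by a cluster that is also annotated with the microRNA gene Mir410, outside the rule for members. That cluster read 7.21, 7.13 and 7.15 in Rb1+/+ and 6.47, 6.70 and 6.41 in Rb1L/L cultures. Every Rb1L/L culture lay clearly below the narrow Rb1+/+ range, and the cluster fell by 0.63 ± 0.08 on the log2 scale, 1.55-fold lower (adjusted p = 0.00465, and 0.00557 with the block). Over the 17930 clusters with 1 or more symbols that were tested, 13% passed without the block and 15% with it. The cluster cannot tell the host transcript from the microRNA precursor.

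The mature products of Mir410 (RefSeq, GRCm38.p6, chr12:109743729-109743749 for the 5p arm and chr12:109743764-109743784 for the 3p arm, plus strand) are printed because this cluster had the largest negative difference among those annotated with 1 of the 32 genes and another symbol. Those of Mir370 (chr12:109618270-109618289 and chr12:109618305-109618326, plus strand) are printed because its gene passed with the block. Capitals mark the seed, bases 2 to 8, and the 4 seeds all differ.
mmu-miR-410-5p: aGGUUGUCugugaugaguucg
mmu-miR-410-3p: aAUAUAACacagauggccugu
mmu-miR-370-5p: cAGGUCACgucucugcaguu
mmu-miR-370-3p: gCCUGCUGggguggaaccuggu

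Another 43 genes between Dlk1 and Dio3 had a cluster of their own, 40 of them microRNA genes and 3 small nucleolar RNA genes; this set was chosen after values were seen. Of the 21 microRNA genes tested, none passed in limma without the block (12.2% of all genes), 8 had an unadjusted p under 0.05 (28.7% of all genes), and 1, Mir370, passed with the block (14.4% of all genes). Mir370 read 5.83, 5.63 and 5.57 in Rb1+/+ and 5.51, 5.43 and 5.40 in Rb1L/L cultures, a difference of -0.23 (adjusted p = 0.0925, and 0.0493 with the block). The median difference of the 21 was -0.14, beside -0.02 over all genes, and 7 read lower with no overlap between groups, beside 18.3% of all genes. Neighbouring microRNA genes share a host transcript, and nothing particular to the set is read from these counts. Mir337 had the lowest value, -0.47 ± 0.13 (adjusted p = 0.0519, and 0.0685 with the block). A whole-transcript array reads precursors and host RNA and does not measure the mature microRNA.

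The small nucleolar RNA gene DQ267102, whose start lies after that of Rian in the tract, went the other way. It read 10.86, 11.29 and 10.65 in Rb1+/+ and 11.97, 12.15 and 12.01 in Rb1L/L cultures, with no overlap. It rose by 1.11 ± 0.14, or 2.16-fold (adjusted p = 0.0048, and 0.00194 with the block). Its RNA belongs to a family of repeated near-identical copies, so the probes may read several of them, and the gene is uncertain. The neighbouring AF357341 differed by 0.10 (adjusted p = 0.306).

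**Figure D4:**
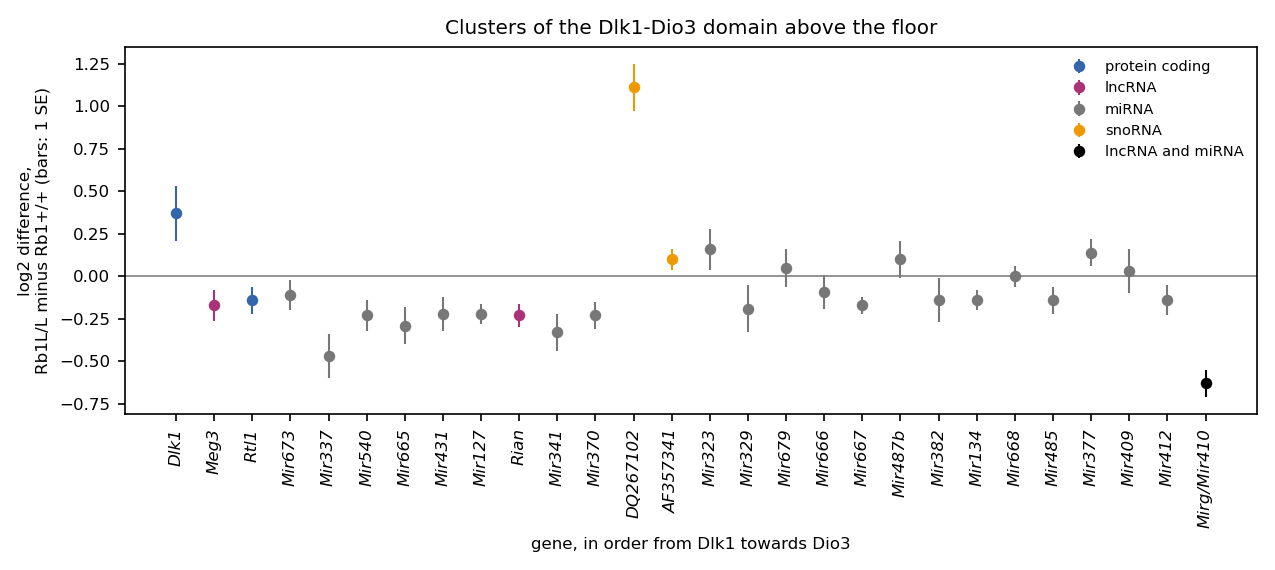
Points show the log2 difference (Rb1L/L minus Rb1+/+) with bars of 1 standard error for tested genes of the Dlk1 to Dio3 domain. The cluster of Mirg and Mir410 is added, and the second Rian cluster, also annotated with AF357355, is not drawn. Genes are in genomic order and coloured by kind, without distances to scale. DQ267102 stands at 1.11 and the cluster of Mirg and Mir410 at -0.63, while most microRNA genes lie between these and near or below 0.

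The other members gave no difference that passed. Peg3, a zinc finger protein of fetal growth and maternal behaviour, differed by 0.12 (adjusted p = 0.522), and its maternally expressed neighbour Zim1, another zinc finger gene, by 0.02 (adjusted p = 0.947). Usp29, a ubiquitin protease gene that starts beside Peg3 in the opposite direction, averaged 4.65 and 4.67, below the level for a test. In the Kcnq1 domain, Phlda2, which limits placental growth, differed by -0.12 (adjusted p = 0.451), the transporter gene Slc22a18 by 0.13 (adjusted p = 0.311) and the trophoblast factor Ascl2 by 0.08 (adjusted p = 0.436).

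Impact, a regulator of the amino acid sensing kinase GCN2, read 11.13, 11.12 and 11.11 in Rb1+/+ and 11.07, 10.93 and 10.96 in Rb1L/L cultures. The groups did not overlap, yet the difference of -0.13 ± 0.06 did not pass (adjusted p = 0.181). Nap1l5, a nucleosome assembly protein relative that lies within an intron of Herc3, differed by -0.10 (adjusted p = 0.617). Gnas, for the stimulatory G protein alpha subunit, was measured only by a cluster that is also annotated with Gnasas1, and this differed by -0.03 (adjusted p = 0.712). Kcnq1ot1 and Zrsr1 had no cluster with their symbol alone and are not analysed here.

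Promoter windows of 250 bases before and 50 after the start were taken from the RefSeq table for 27 of the 32 genes. Peg10, Sgce, H19 and Rtl1 had no entry. Impact was left out by a filter on its chromosome, whether or not it had one. Only the first window listed for each gene was read, so other starts of a gene are not covered. The median GC content of the 27 windows was 57.3%, beside 52.7% over all 27025 genes with a window. An observed over expected CpG ratio above 0.6 was found in 13 of the 27 (48.1%), beside 36.4%. The ZFP57 hexamer TGCCGC, searched on both strands, was present in 6 of the 27 (22.2%), beside 11.6% of all windows. Those 6 were Nnat, Nap1l5, Zim1, Plagl1, Grb10 and Meg3. The E2F octamers TTTCCCGC, TTTGGCGC, TTTCGCGC and TTTGCCGC, searched on both strands, were present in 2 (7.41%), Nap1l5 and Plagl1, beside 2.32% of all windows. Both hold TTTGCCGC, which overlaps the ZFP57 hexamer, so these 2 matches are not separate from the first count. The germ-line control regions that carry the imprint often lie outside such windows, and the windows of Peg3 and Usp29 overlap each other on opposite strands.

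Among 50 other genes known as imprinted, 38 were tested, and 3 were higher and 4 lower without the block, with a median difference of -0.05. Of all genes, 7.11% were higher and 5.07% lower. With the block, 4 were higher and 8 lower, beside 7.99% and 6.45% of all genes. Atp10a, a lipid-flipping ATPase gene beside the Prader-Willi region, read 8.89, 8.97 and 8.72 in Rb1+/+ and 9.54, 9.55 and 9.52 in Rb1L/L cultures. It rose by 0.68 ± 0.07, or 1.60-fold (adjusted p = 0.00294), with tightly grouped Rb1L/L values. Tfpi2, a protease inhibitor gene near Peg10, rose by 0.40 (adjusted p = 0.0456), and Nap1l4, a histone chaperone gene at the edge of the Kcnq1 domain, rose by 0.27 (adjusted p = 0.0311).

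Tnfrsf23 and Tnfrsf22, neighbouring decoy receptor genes for TRAIL beyond the Kcnq1 domain, fell by 0.51 (adjusted p = 0.0106) and 0.30 (adjusted p = 0.0347) on the log2 scale. Tnfrsf23 read 10.84, 10.76 and 10.84 in Rb1+/+ and 10.19, 10.48 and 10.23 in Rb1L/L cultures. Copg2, described with Mest, and Ampd3, an AMP deaminase gene that fell by 0.37 (adjusted p = 0.048), were the other 2 that were lower. In or near the Kcnq1 domain, Nap1l4 rose, Tnfrsf23 and Tnfrsf22 fell, and the tested members did not pass. Cdkn1c, the cyclin-dependent kinase inhibitor of the Kcnq1 domain, differed by 0.02 (adjusted p = 0.938). Of the host genes of members, Commd1, which surrounds Zrsr1, differed by 0.34 (adjusted p = 0.063, and 0.0156 with the block), and Herc3, which surrounds Nap1l5, by -0.43 (adjusted p = 0.298, and 0.0218 with the block).

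Among 25 proteins that set or maintain imprints, 21 genes were tested, and 4 were higher and 1 lower without the block, beside 7.11% and 5.07% of all genes. With the block, 2 were higher and 2 lower, beside 7.99% and 6.45%. Dnmt1, the methyltransferase that copies DNA methylation at replication, read 9.95, 10.00 and 10.07 in Rb1+/+ and 10.54, 10.57 and 10.57 in Rb1L/L cultures. It rose by 0.55 ± 0.06, or 1.47-fold (adjusted p = 0.00272), and Uhrf1, which brings it to replicating DNA, rose by 0.57 ± 0.11, or 1.49-fold (adjusted p = 0.016). Both are known targets of E2F factors, but a part of E2F in these rises was not tested. Hells and Ezh2 of the same list did not pass, at 0.09 (adjusted p = 0.614) and 0.04 (adjusted p = 0.72). Trim28, the corepressor partner of ZFP57, rose by 0.26 (adjusted p = 0.0355), and Eed, a Polycomb subunit, rose by 0.22 (adjusted p = 0.0448), but neither passed with the block (adjusted p = 0.0509 and 0.0537). Tet3, a dioxygenase that oxidises methylcytosine, fell by 0.37 on the log2 scale (adjusted p = 0.0177), and its relative Tet2 passed downward only with the block (-0.36, adjusted p = 0.163, and 0.0277 with the block). Zfp57 itself differed by 0.22 (adjusted p = 0.0646), Dnmt3a, a methyltransferase that lays down new marks, by -0.11 (adjusted p = 0.383) and the insulator protein gene Ctcf by 0.01 (adjusted p = 0.948). DNA methylation itself was not measured.

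Of 13 tested genes of the IGF2 pathway outside the members, 2 passed without the block and 2 with it, both lower, beside 5.07% and 6.45% of all genes that were lower. Igfbp5 and Igfbp3, secreted binding proteins that control the supply of IGF, fell by 0.74 ± 0.16 (adjusted p = 0.0241) and 0.54 ± 0.10 (adjusted p = 0.0176) on the log2 scale. Igfbp5 read 10.15, 9.52 and 9.68 in Rb1+/+ and 8.84, 9.16 and 9.14 in Rb1L/L cultures. The other secreted binding proteins tested did not pass: Igfbp6 (0.20), Igfbp2 (0.09), Igfbp4 (-0.11) and Igfbp7 (-0.09), with adjusted p from 0.215 to 0.732. The signalling receptors did not pass, with Igf1r at -0.06 (adjusted p = 0.554) and Insr at -0.14 (adjusted p = 0.249), and neither did Igf2bp1 at 0.19 (adjusted p = 0.139) nor Igf2bp3 at -0.10 (adjusted p = 0.347), which encode binding proteins of Igf2 mRNA.

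**Figure D5:**
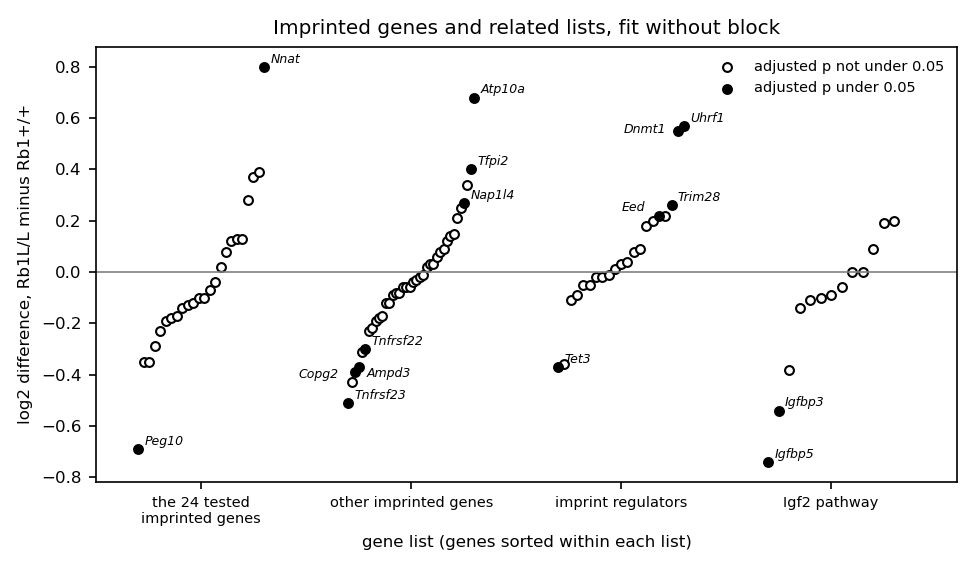
Each point is the log2 difference (Rb1L/L minus Rb1+/+) of 1 tested gene, sorted within the imprinted genes, the other imprinted genes, the imprint regulators and the IGF2 pathway, and filled points have an adjusted p under 0.05 without the block. Nnat at 0.80, Atp10a at 0.68, Uhrf1 at 0.57 and Dnmt1 at 0.55 are the highest filled points, and Igfbp5 at -0.74 and Peg10 at -0.69 the lowest.

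Several imprinted genes are strongly expressed in particular embryonic cell types, such as Nnat in neural cells and Peg10, Phlda2 and Ascl2 in trophoblast, so markers of other cells were read on the same arrays. All 12 fibroblast markers were above the test level, with a mean of 11.07 to 11.18 in Rb1+/+ and 10.98 to 11.03 in Rb1L/L cultures. Without the block, 2 of them, Col3a1 and Lum, passed downward, beside 5.07% of all genes. Dcn, which is also among the other imprinted genes, passed downward only with the block (-0.31, adjusted p = 0.113, and 0.0346 with the block). With the block, 3 of the 12 passed downward, beside 6.45% of all genes. Of the neural markers, 11 of 12 were tested and 3 passed downward (Tubb3, Ncam1 and Fabp7), beside 5.07% of all genes. The tested neural markers had a mean of 7.67 to 7.79 in Rb1+/+ and 7.45 to 7.62 in Rb1L/L cultures, and Dcx was below the test level.

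Of 8 trophoblast markers, 2 were tested and neither passed (12.2% of all genes), and Tpbpa, Elf5 and Psg17 were below the test level. The 9 macrophage and blood markers tested had 3 higher (Adgre1, Cd14 and C1qa) and 1 lower (Cx3cr1), beside 7.11% and 5.07% of all genes. Their mean was 7.12 to 7.59 in Rb1+/+ and 7.39 to 7.80 in Rb1L/L cultures. Of the 7 skeletal muscle and 5 cartilage and bone markers tested, none passed in limma (12.2% of all genes). In each of these lists, 2 had an unadjusted limma p under 0.05 (28.7% of all genes). Of the 7 epithelial and endothelial markers tested, 1, Kdr, was higher (7.11% of all genes), while Epcam and Pecam1 were below the test level. The part of these shifts in the differences of the imprinted genes was not tested.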

How the data were processed

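Total RNA of 3 Rb1+/+ and 3 Rb1L/L fibroblast cultures was measured on Affymetrix arrays. The deposited values are log2 expression of 35556 transcript clusters from 2.28 to 14.16, and the submitters' processing notes name RMA and Partek. RMA pulls small differences together, so fold changes may be understated, and 6 arrays limit the precision. Clusters were named from the platform annotation: 21789 had 1 symbol, 1621 several and 12146 none. A gene was its brightest 1-symbol cluster, and 997 genes had several. Genes were tested where their mean exceeded 5.081, a level that 90% of 1194 smell and pheromone receptor genes, silent in fibroblasts, did not reach.

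The test was limma's lmFit and eBayes (version 3.58.1, R 4.3.3), which was tested on simulated data, with Benjamini-Hochberg adjustment over all 15451 genes and a threshold of 0.05. Same-numbered cultures deviated together (correlations of 0.30, 0.24 and 0.30, and 0.12, 0.20 and 0.26 without the sex chromosomes). Differently numbered cultures ran from -0.27 to 0.08 without the sex chromosomes, so number 1, at 0.12, stood little apart. The design text speaks of pairs but the labels give only replicate numbers. The fit with the replicate number as a block is given where it changes a call. All 6 values are printed for members that passed in either fit or whose groups did not overlap. For other members the difference or the group means are printed, and of each list up to 6 genes that passed are named; per-array values of some neighbours, and genes named beyond this, were chosen after their values were seen. The members and all lists were chosen with earlier results of these data known. Alternatives left out arrays, and changed scaling, weights, variance moderation, filter and cluster choice.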

Additional observations from a re-analysis of the deposited data

How the results depend on the processing

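Nnat passed the threshold in 16 of 17 alternatives (0.68 to 0.92, adjusted p 0.00305 to 0.0611) and Peg10 in 15 of 17 (-0.77 to -0.59, adjusted p 0.00231 to 0.0783), including all fits that left out 1 array. With both arrays of a replicate number left out, which leaves 2 cultures a genotype, Nnat was 0.81 without number 3 (adjusted p = 0.0611), and Peg10 was -0.66 without number 1 (adjusted p = 0.0783) and -0.73 without number 3 (adjusted p = 0.0646). The cluster of Mirg and Mir410 was -0.58 (adjusted p = 0.0841) and DQ267102 was 1.11 (adjusted p = 0.0792) without number 1. Fewer samples were fitted in each of these. The replicate block, which raised the count of members from 2 to 7 (3 higher, 4 lower), raised the other imprinted genes from 7 to 12 and the genes between Dlk1 and Dio3 from 1 to 2. It added Commd1, H13, Sfmbt2, Herc3 and Dcn to the other imprinted genes and changed no other call of a member.

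Leaving out 1 array gave 2 to 3 members, the higher count with Dlk1 without Rb1+/+ replicate 2. It gave 622 (without Rb1L/L replicate 2) to 1440 genes of all tested, against 1881, with 822 and 911 when Rb1+/+ replicate 1 or 3, and 629 and 1183 when Rb1L/L replicate 1 or 3, was left out. It gave 3 to 5 other imprinted genes against 7, 1 to 3 imprint regulators against 5, 0 to 2 genes of the IGF2 pathway against 2 and 1 to 2 genes between Dlk1 and Dio3. Without both arrays of number 1, 2 or 3, the counts were 1, 3 and 0 members, 92, 468 and 460 of all genes, 0, 2 and 2 other imprinted genes, 0, 2 and 1 regulators, 0, 1 and 1 of the IGF2 pathway and, for numbers 1 and 2, 0 and 2 between Dlk1 and Dio3. That last count was also 2 with trended variances, median centring, quantile normalization, no filter on dim genes and a stricter filter. Dlk1 passed without both arrays of number 2 (0.59, adjusted p = 0.032), and Grb10 passed with trended variances (-0.18, adjusted p = 0.0263).

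Differences near 0 changed sign. Ppp1r9a was 0.01 without both arrays of number 1, and lay between -0.11 and 0.01 in all. Asb4 was 0.01 without Rb1+/+ replicate 1 and 0.04 without both arrays of number 1, with a lowest value of -0.20. Nap1l5 was 0.02 without Rb1+/+ replicate 3, with a lowest value of -0.21. Zim1 was -0.000635 and -0.05 when Rb1+/+ replicate 1 or 3 was left out, -0.09 and -0.04 when Rb1L/L replicate 2 or 3 was, -0.10 without both arrays of number 3 and -0.06 with array weights, with a highest value of 0.18. The cause was not tested. Genes below the test level, Usp29 and Dio3, are too dim here for a difference to be read.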

Other observations

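Each genotype had 1 culture of male type, so the spread of the genotype difference among male cultures is unknown. In a limma fit with an interaction of genotype and sex type, no gene passed after adjustment (0 genes, smallest adjusted p = 0.999). Before adjustment, 435 of 15451 genes and 1 of the 24 tested imprinted genes had a p under 0.05, the latter being Peg3, which is named for that reason alone. Peg3 differed by -0.25 in the male pair and by 0.29 and 0.30 in the female pairs.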
